A study of Mus musculus with 35 samples.

Results

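Gastrocnemius muscle of 24-month-old male mice carrying a PGC-1α transgene was compared with that of wild-type males of the same age, with 6 libraries in each group, 12 of the 35 libraries of the series. The members were chosen by genotype and age alone: PGC-1α transgenic (mTG) at 24 months against WT at 24 months. Transgenic and WT males of 3 months (6 libraries each) served to ask whether the effect differed between the ages, and the PGC-1α knockout libraries (5 at 3 months and 6 at 24 months) entered the scaling, the filter on low values and the shared estimate of the spread but no comparison. The series' design text calls the libraries of a condition biological replicates, with no treatment named in the labels.

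Columns of the expression table carry short names, so their groups were inferred. Names with SO were read as 24 months, because 6 knockout names carry it and 5 do not, as in the labels. W or WT was read as wild type, and MCK, the remaining prefix, as the transgenic genotype. MCK is a common abbreviation of muscle creatine kinase, whose promoter is active in skeletal and cardiac muscle fibres; the labels name neither the promoter of the transgene, nor the line, nor the strain. Each library was made from total RNA of crushed whole muscle, so that fibres, vessels, connective tissue, nerve and blood were measured together. In such bulk samples, fewer cells of a type and less RNA per cell cannot be told apart. Skeletal muscle markers were high in all 12 libraries. Ckm, the muscle creatine kinase, had 14550 to 28900 scaled TPM, Acta1, the skeletal actin, 9255 to 15810, and Myh4, the myosin heavy chain of type IIb fibres, 4310 to 7845.

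The product of Ppargc1a, PGC-1α, binds no DNA of its own; as a coactivator of transcription it works through partner factors such as the oestrogen-related receptors, the nuclear respiratory factors and the PPARs. In skeletal muscle it is induced by endurance exercise and is known for driving the nuclear genes of mitochondria, of fat oxidation and of vessel growth. Most proteins of mitochondria are encoded in the nucleus and imported. The mitochondrial DNA holds a few respiratory chain subunits together with the rRNAs and tRNAs of the organelle's own ribosome, whose proteins come from nuclear genes.

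Expression is given as TPM (each library adds to a fixed total) after scaling each library by its median ratio to the other libraries. The scaling was needed because a few abundant RNAs took very different shares of that total in the 2 groups. Changes are differences of log2(scaled TPM + 1), transgenic minus WT, with standard errors from limma, and a gene was called when its Benjamini-Hochberg adjusted p was under 0.05. The added 1 understates the changes of genes with low TPM. All p-values measure the spread between these mice only.

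Ppargc1a itself (ENSMUSG00000029167, chromosome 5, 51454250 to 51567726, minus strand, GRCm38) was measured first. In WT muscle the lowest, median and highest levels were 3.79, 4.17 and 4.69 scaled TPM, and in transgenic muscle 64.0, 92.0 and 106.5. Every transgenic library thus lay far above every WT library. The difference was 4.11 ± 0.19 (SE) on the log2 scale, a 17.3-fold change of scaled TPM + 1, with an exact 2-sided permutation p of 0.002165, the smallest that 6 against 6 libraries allow. At 3 months it was 3.67 ± 0.19, and the ages did not pass the test of a difference (0.44, limma adjusted p = 0.413). These gene-level values do not separate RNA of the transgene from RNA of the endogenous gene.

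The 13 protein genes of the mitochondrial DNA took a lowest, median and highest share of 20.3%, 22.6% and 24.5% of all TPM in WT muscle and of 31.7%, 39.1% and 46.7% in transgenic muscle. The groups did not overlap, and the means differed by 17.2 percentage points (exact 2-sided permutation p = 0.002165). Of TPM outside nuclear rRNA genes, the means still differed by 14.94 percentage points. Nuclear protein-coding genes took a mean of 46.4% of TPM in WT and 36.4% in transgenic muscle.

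A second abundant class went the other way. Nuclear rRNA genes took 5.34%, 10.9% and 12.6% of TPM in WT muscle (lowest, median, highest), but 0.384%, 0.701% and 1.33% in transgenic muscle (log2 ratio of shares -3.86, exact 2-sided permutation p = 0.002165). At 3 months this share was at most 0.479% in WT and 0.191% in transgenic libraries. Small structural RNAs, which like rRNA normally carry no poly(A) tail, moved with the rRNA share. They were chosen after their values were seen. The library kit named in the labels' protocols is one that enriches RNA with such a tail. Of 129 tested genes annotated as snRNA, snoRNA, scaRNA, ribozyme or other small RNA, 74 were lower and 3 higher in transgenic muscle at 24 months. Of all genes tested, 23.9% were lower and 24.0% higher at that age. At 3 months 3 of the 129 were lower and 1 higher, against 21.4% and 22.3% of all genes. The filter on low values could admit such a gene through the WT libraries of 24 months alone, where these RNAs were high. This favoured lower calls at 24 months and left few calls possible at 3 months, so the counts are descriptions. The summed level of the 129 genes was 6863, 13930 and 17020 scaled TPM in WT at 24 months and 1053, 2152 and 3602 in transgenic muscle. All WT and transgenic libraries of 3 months lay between 191.3 and 734 scaled TPM. Rn7sk, the RNA that holds the elongation factor P-TEFb inactive, changed by -3.58 ± 0.42 at 24 months, and Rpph1, the RNA of ribonuclease P, by -3.01 ± 0.39. At 3 months Rpph1 had medians of only 0.0863 scaled TPM in WT and 0.217 in transgenic muscle.

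Both rRNAs of the mitochondrial ribosome behaved like the nuclear rRNAs at 24 months and unlike the mitochondrial mRNAs. The large one, mt-Rnr2, had 13520, 19340 and 23700 scaled TPM in WT and 3626, 4931 and 8091 in transgenic muscle, a change of -1.85 ± 0.29 (limma adjusted p = 2.55e-06). At 3 months the same gene was higher in transgenic muscle by 1.44 ± 0.29, with a median of 3171 scaled TPM against 1158 in WT. The small one, mt-Rnr1, changed by -1.61 at 24 months and by 1.51 at 3 months. With the rRNA share of each library as a covariate, none of Rn7sk (0.65), Rpph1 (1.10, limma adjusted p = 0.0277), mt-Rnr1 (0.47) and mt-Rnr2 (0.16) was lower at 24 months. The rRNA share did not overlap between the genotypes at 24 months, so a fit with it as covariate cannot tell the share and the genotype apart. How RNA without a poly(A) tail entered the libraries, and its part in the results below, was not tested.

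**Figure D1:**
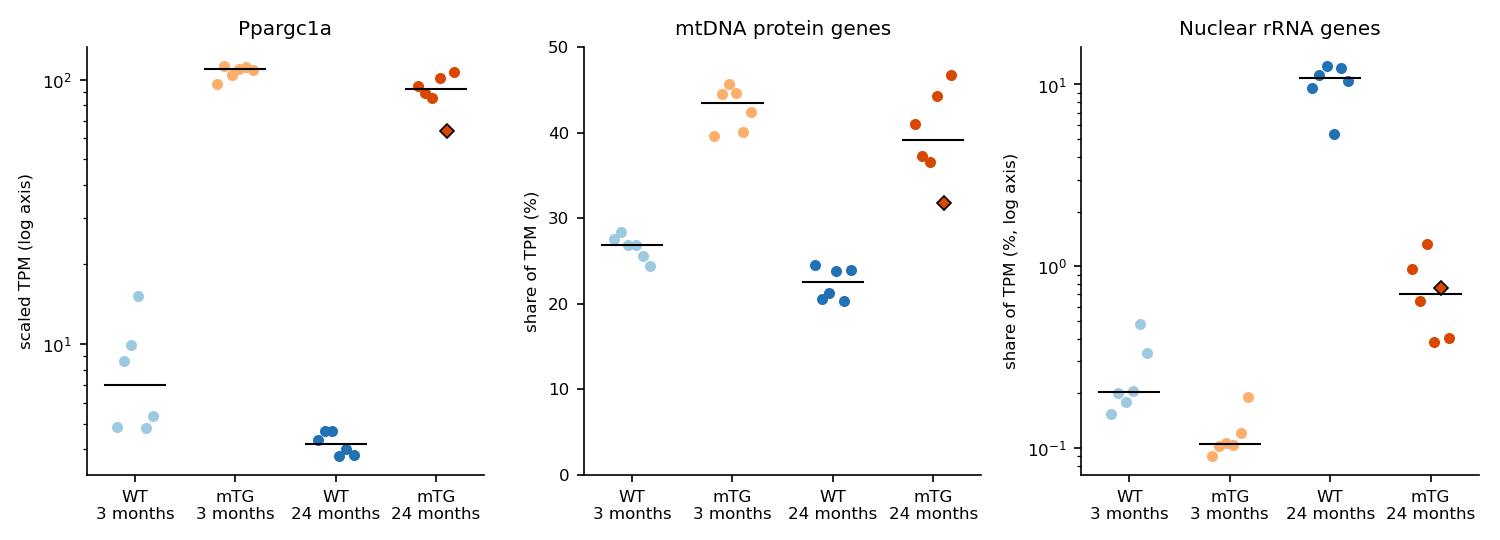
Ppargc1a level (scaled TPM), share of TPM from the 13 protein genes of mitochondrial DNA and share from nuclear rRNA genes (both in percent), for WT and transgenic libraries at 3 and 24 months. Each point is 1 library, the line is the group median and the black-edged diamond is the library MCK_SO_17. At 24 months the rRNA share was 5.34% to 12.6% in WT and 0.384% to 1.33% in transgenic muscle, while the mitochondrial share was higher in every transgenic library.

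One transgenic library, MCK_SO_17, stood apart from the other transgenic libraries of 24 months. It had the lowest Ppargc1a level (64.0 scaled TPM) and the lowest mitochondrial share (31.7%) of its group. Its median correlation with the rest of the group was 0.961, against 0.977 to 0.980 for the others, and its short transcripts were relatively high (Spearman's rho of its deviations with transcript length -0.31 over 10876 nuclear protein-coding genes). In 30 of the 45 gene lists it had the highest summed level of its group. Counts without it are given below where they moved by more than 1.5 times.

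Of 12399 genes tested, 2979 (24.0%) were higher and 2962 (23.9%) lower in transgenic muscle. Of these, 437 rose and 240 fell by at least 2-fold. The median change of all genes was -0.01 and the median size of a called change 0.44 on the log2 scale. For 3006 genes (24.2%) the 6 libraries of one group all lay above the 6 of the other, 1642 of them higher in transgenic muscle. The split depended on the scaling: on unscaled TPM the median gene shifted to -0.38, and 849 genes were higher and 7714 lower. With the rRNA share of each library as a covariate, whose ranges in the genotypes did not overlap at this age, 1007 genes were higher and 715 lower. With that covariate 37 named genes that were called at 24 months no longer passed (limma adjusted p = 0.0542 to 0.792): Esrrg, Tfam, Ppargc1b, mt-Nd6, Twnk, Tefm, Mrpl23, Yars2, Cox16, Pdk1, Plin5, Srebf1, Slc16a3, Ldha, Ldhb, Mb, Myh7, Myh2, Jph2, Trim63, Fbxo32, Rgs5, Dcn, Dpt, Scx, Tnmd, Col4a1, Fbn1, Ighm, Fyb, BC048679, Myh13, Tceal5, Mamstr, Zbtb20, Ttn and Clock. Counts of calls on scaled TPM for gene groups below are to be read against the shares of all genes, about 24% in each direction. Other counts have other backgrounds among the 12399 genes. These are 849 higher and 7714 lower on unscaled TPM, and 1007 and 715 with the rRNA covariate. For groups without overlap they are 1642 higher and 1364 lower. Where no member of a list was called in a direction, none or at most 1 passed an unadjusted p of 0.05 in that direction.

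Among the partners of PGC-1α, the oestrogen-related receptors moved in different directions. Esrra, the receptor through which PGC-1α drives respiratory chain genes, had 38.0, 41.7 and 46.7 scaled TPM in WT and 82.3, 106.3 and 115.8 in transgenic muscle, with no overlap, and a rise of 1.27 ± 0.11 (limma adjusted p = 6.04e-11). Esrrb rose by 1.54 ± 0.10 from a median of 1.25 scaled TPM, while Esrrg fell by 0.52 ± 0.16 (limma adjusted p = 0.00834) with overlapping groups. Perm1, a muscle protein induced by PGC-1α and the oestrogen-related receptors, rose by 1.30 ± 0.10 and Tfam, which packages mitochondrial DNA, by 0.90 ± 0.09. The related coactivator Ppargc1b fell by 0.68 ± 0.11. Neither Nrf1 (0.11) nor Gabpa (-0.10) nor Ppard (0.09) passed the test, with limma adjusted p of 0.329 to 0.563, and Ppara stood at 0.52 (limma adjusted p = 0.0582).

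The whole list of 36 coactivators and partner factors was split, with 8 higher, 10 lower and 18 not called, and a median of -0.05. Prkag3, the regulatory AMPK subunit of glycolytic fibres, fell by 2.42 ± 0.14, from 64.0, 75.9 and 86.3 scaled TPM in WT to 8.68, 13.5 and 18.8 in transgenic muscle. Sirt3, a mitochondrial deacetylase that was chosen after its value was seen, rose by 1.38.

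Promoters were searched on both strands for the binding motifs of these partners, in the RefSeq windows of 250 bases before to 50 after a start site (GRCm38.p6). The search covered the 8917 tested genes that matched by symbol. The extended oestrogen-related receptor element TCAAGGTCA was present for 26 genes (0.292%) of all, for 8 of 2222 called higher (0.360%) and for 4 of 295 that rose at least 2-fold (1.36%). Of 2149 called lower 5 had it (0.233%), and of the 99 that fell at least 2-fold 1 (1.01%), so that these shares rest on few genes. The NRF1 motif GCGCATGCG was present in 4.32% of all genes, 4.77% of those higher and 3.86% of those lower. It was present in 4.75% of those that rose at least 2-fold and in 0 of the 99 that fell as much. The GABPA motif CCGGAAGT was present in 9.54% of all genes, 8.73% of those higher and 8.004% of those lower. For rises and falls of at least 2-fold its shares were 6.10% and 2.02%. A match describes letters in a window and is no site of binding.

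The 4 windows with the element whose genes rose at least 2-fold, chosen after their values were seen, are shown to place the element, in capitals, relative to the start site. For Msrb2 (chr2:19371386-19371635, plus strand) it begins 119 bases before the start site, for Atp5g3 (chr2:73911327-73911576, minus strand) 52 and for Mtrf1l (chr10:5823944-5824193, minus strand) 208 bases before it. For Sdhd (chr9:50603800-50603823, minus strand), only the surroundings of the element, which begins 37 bases into the transcribed part, are given. In Atp5g3 and Sdhd the capitals are the reverse complement of the element.
Msrb2: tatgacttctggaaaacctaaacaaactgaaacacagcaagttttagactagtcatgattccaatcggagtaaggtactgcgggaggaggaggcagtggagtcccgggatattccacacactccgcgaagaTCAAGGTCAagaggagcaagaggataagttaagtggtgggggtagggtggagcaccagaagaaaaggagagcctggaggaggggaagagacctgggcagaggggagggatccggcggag
Atp5g3: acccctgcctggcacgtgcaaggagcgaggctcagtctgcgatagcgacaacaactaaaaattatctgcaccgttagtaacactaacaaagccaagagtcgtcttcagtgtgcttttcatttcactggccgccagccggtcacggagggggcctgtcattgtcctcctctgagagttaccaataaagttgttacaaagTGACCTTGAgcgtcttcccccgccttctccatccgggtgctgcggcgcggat
Sdhd: ggttgtagagTGACCTTGAgccct
Mtrf1l: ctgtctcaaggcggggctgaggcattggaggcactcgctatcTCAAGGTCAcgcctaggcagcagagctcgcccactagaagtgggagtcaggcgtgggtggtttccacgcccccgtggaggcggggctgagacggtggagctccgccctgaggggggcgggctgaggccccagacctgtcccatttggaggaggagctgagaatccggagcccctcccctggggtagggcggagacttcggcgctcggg

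Msrb2, a mitochondrial methionine sulfoxide reductase, rose from a median of 7.10 to 28.9 scaled TPM (1.88 ± 0.16), and Atp5g3, a subunit c gene of ATP synthase, from 731 to 2065 (1.59 ± 0.11). Sdhd, the small membrane anchor of complex II, rose by 1.20 ± 0.07, and Mtrf1l, a mitochondrial release factor, by 1.02 ± 0.15. Timm8b, whose window also holds the element, was not called (0.07, limma adjusted p = 0.654).

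Expression of the mitochondrial genome rose at the level of its mRNAs. Of its 13 protein genes, 12 were higher, none lower, with a median of 1.30, and in 9 the groups did not overlap. The ATP synthase subunit mt-Atp6 had 8014, 9513 and 15000 scaled TPM in WT and 32810, 48640 and 67980 in transgenic muscle (2.23 ± 0.15, limma adjusted p = 1.04e-13). The cytochrome oxidase subunit mt-Co3 rose by 1.31 ± 0.11 and cytochrome b, mt-Cytb, by 1.33 ± 0.15. The one not called was mt-Nd4l (0.76, limma adjusted p = 0.0592), and mt-Nd6, the protein gene encoded on the other strand, stood at 0.30 with overlapping groups and a limma adjusted p of 0.0445 that rose to 0.0624 to 0.105 without any of 7 single libraries. Of 19 mitochondrial tRNA genes, 12 were higher at each of the ages.

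Factors that keep and transcribe mitochondrial DNA rose in part: 9 of 18 were higher and 1 lower (median 0.24, or -0.15 on unscaled TPM). Mterf2, a termination factor family member, rose by 1.16 ± 0.10, Twnk, the mitochondrial helicase, by 0.49 ± 0.06, and Tefm, the elongation factor, by 0.88 ± 0.11. Factors that process mitochondrial RNA were higher in 18 of 25 and lower in none (median 0.39, or -0.06 unscaled). Among them Lrpprc, which stabilises mitochondrial mRNAs, went from 14.7, 15.3 and 17.5 to 28.4, 33.4 and 38.7 scaled TPM (1.04 ± 0.08), and Tbrg4, also an RNA-stability factor, rose by 1.39 ± 0.07.

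Mitochondrial translation, named in the series' title, was represented by 3 lists. Of 83 proteins of the mitochondrial ribosome, 63 were higher and 1 lower, with a median of 0.55, and in 56 every transgenic library lay above every WT library. Mrpl37 went from 31.7, 35.7 and 39.5 to 73.2, 79.5 and 99.9 scaled TPM (1.18 ± 0.08), Mrps27 rose by 1.03 ± 0.08, and Dap3, a protein of the small subunit also known as a death-associated GTP-binding protein, by 1.35 ± 0.10. On unscaled TPM the median of the list was 0.05, with 28 higher and 24 lower, above the shift of all genes. With the rRNA covariate 32 were higher and none lower.

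The member called lower, Mrpl23, had WT levels from 0.90 to 87.1 scaled TPM and transgenic levels from 0.44 to 2.09, so that the groups overlapped. Its call (-2.23) was lost without WSO_13, WSO_14 or WSO_28 (limma adjusted p = 0.067 to 0.108). No other member of the ribosome list had a change under -0.18.

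Translation factors of mitochondria were higher in 17 of 23 and lower in none (median 0.64). Tufm, the elongation factor that brings tRNAs to the ribosome, went from 39.9, 45.4 and 51.0 to 106.1, 121.1 and 151.3 scaled TPM, with no overlap (1.40 ± 0.10). Its exchange factor Tsfm rose by 1.15 ± 0.09, Rmnd1, needed for mitochondrial translation, by 1.38 ± 0.10, and Guf1, a back-translocase, by 0.91 ± 0.08.

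Mitochondrial aminoacyl-tRNA synthetases and related enzymes were higher in 16 of 21 and lower in 1 (median 0.44, or -0.08 unscaled). Qrsl1, a subunit of the glutaminyl-tRNA amidotransferase, rose by 1.33 ± 0.09, Fars2, the phenylalanine enzyme, by 1.56 ± 0.18, and Yars2, the tyrosine enzyme, by 1.16 ± 0.13. The one that fell was Lars2, the leucine enzyme. Lars2 had 2029, 3752 and 4365 scaled TPM in WT and 335.7, 477 and 637.5 in transgenic muscle (-2.86 ± 0.33, limma adjusted p = 1.21e-08). No other member had a median above 36.5 scaled TPM in either group. At 3 months Lars2 had medians of 53.4 in WT and 61.9 in transgenic muscle, and with the rRNA share as covariate the change at 24 months was 0.69 (limma adjusted p = 0.104).

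The respiratory chain rose at nearly every subunit. Of 83 nuclear subunits tested, 79 were higher and in 73 the groups did not overlap. None had an effect that differed from that at 3 months by limma (6 did at an unadjusted p under 0.05). By complex, 36 of 37 members of complex I were higher (median 0.87), all 4 of complex II (1.26), all 9 of complex III (1.06), 14 of 15 of complex IV (0.89) and 17 of 19 of ATP synthase (0.87), and none was lower.

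In complex I, which takes electrons from NADH, Ndufs1, a core iron-sulfur subunit, went from 112, 124 and 130.9 to 228.7, 248.1 and 307.7 scaled TPM (1.05 ± 0.08). Ndufa8 rose by 1.49 ± 0.12 and Ndufb10 by 1.47 ± 0.14. In complex II, succinate dehydrogenase, Sdha rose by 1.31 ± 0.07 and Sdhb by 1.39 ± 0.10, whereas Sdhc, its other membrane anchor, rose by 0.32 ± 0.07 and was lower on unscaled TPM. In complex III, Uqcrc1, a core subunit, rose by 1.51 ± 0.12 and Cyc1, cytochrome c1, by 1.12 ± 0.10.

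Cox4i1, a regulatory subunit of cytochrome oxidase (complex IV), went from 779.9, 821 and 893.5 to 1902, 2240 and 3628 scaled TPM (1.51 ± 0.15). Cox5a rose by 1.24 ± 0.12 and Cox5b by 1.40 ± 0.16. Atp5b, the catalytic β subunit of ATP synthase, went from 1544, 1696 and 1762 to 4715, 5342 and 8580 scaled TPM (1.76 ± 0.14), and Atp5g1, a second gene of subunit c, rose by 1.82 ± 0.16. The third subunit c gene, Atp5g2, was not called (-0.51, limma adjusted p = 0.49). The highest value of each complex's summed level came from MCK_SO_17, at 33650 scaled TPM for complex I against a group median of 19740 and a WT maximum of 12630. Without that library 35 of 37 complex I members were higher.

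Assembly factors of the chain were higher in 33 of 45 and lower in 1 (median 0.56). Sco2, which delivers copper to cytochrome oxidase, went from 4.58, 5.29 and 6.23 to 20.3, 26.9 and 31.5 scaled TPM (2.13 ± 0.11), among the largest rises of all. Ndufaf6, a complex I factor, rose by 1.63 ± 0.11 and Cox10, which makes the haem of cytochrome oxidase, by 1.05 ± 0.07, while Cox16 fell by 0.65. Enzymes of coenzyme Q synthesis and cytochrome c were higher in 10 of 15, lower in none (median 0.78), with rises of 1.72 ± 0.11 for Pdss1, which makes the side chain, and 1.33 ± 0.07 for Coq5.

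**Figure D2:**
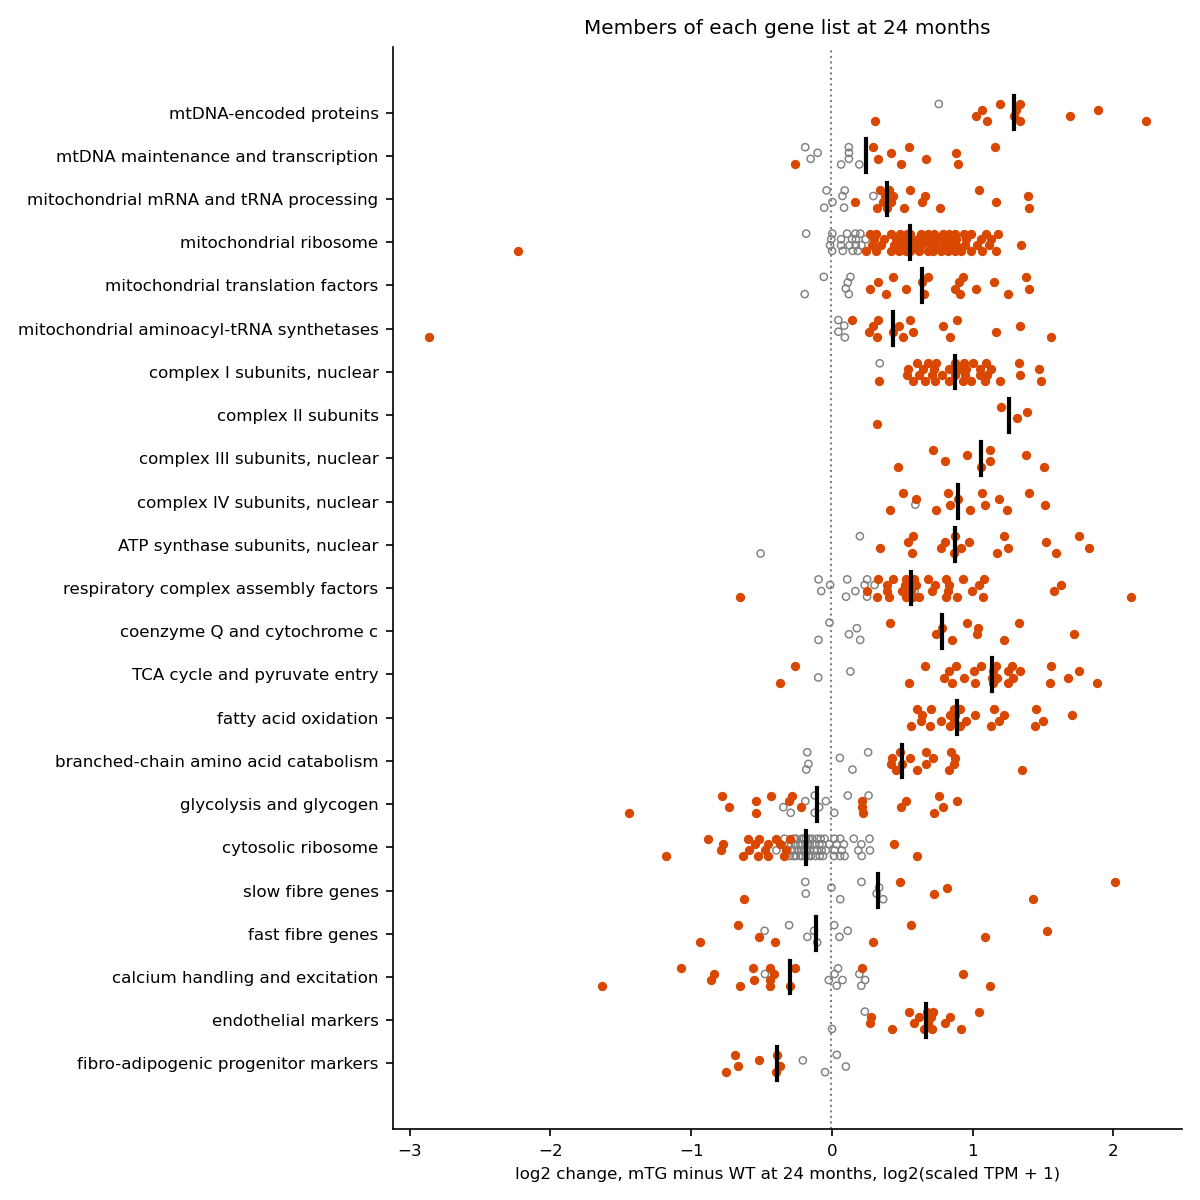
Log2 changes at 24 months, transgenic minus WT, for the tested members of 23 gene lists, 1 row per list. Filled orange points are called genes (limma adjusted p under 0.05), open points are not called, the black bar is the list's median and the dotted line the median of all 12399 genes (-0.01). Respiratory complexes, the TCA cycle and fatty acid oxidation lie to the right with few open points, and the calcium list has a median of -0.30.

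Genes of oxidative fuel use were higher at several steps. All 24 tested genes of fatty acid oxidation were higher, each without overlap (median 0.89). Acadvl, the very-long-chain acyl-CoA dehydrogenase, went from 108, 118.2 and 127.2 to 335.1, 356.1 and 614.6 scaled TPM (1.71 ± 0.13). Cpt2, of the carnitine shuttle, rose by 1.50 ± 0.11 and Acadl, the long-chain dehydrogenase, by 1.45 ± 0.11.

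Of 29 genes of the TCA cycle and pyruvate entry, 25 were higher and 2 lower (median 1.14). Got2, the mitochondrial aspartate aminotransferase, went from 91.5, 111.3 and 124 to 374.7, 406.6 and 451.7 scaled TPM (1.89 ± 0.11), and Dlst, of the oxoglutarate dehydrogenase complex, rose by 1.56 ± 0.07. The 2 that fell were Pdk1 (-0.26), a kinase that inhibits pyruvate dehydrogenase, and Pcx (-0.37), pyruvate carboxylase. All 6 tested genes of the malate-aspartate shuttle and the kynurenine aminotransferases were higher (median 1.20), among them Got1 by 1.75 ± 0.13, Slc25a11, the oxoglutarate carrier, by 1.36 ± 0.08 and Kyat1 by 0.91 ± 0.09. The kynurenine aminotransferases convert kynurenine to kynurenic acid in muscle.

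Uptake and storage of lipid were mixed, with 14 of 25 higher and 3 lower (median 0.43). Pnpla2, the lipase that starts triglyceride breakdown, went from 62.0, 81.5 and 86.6 to 193.5, 208.6 and 242.8 scaled TPM (1.42 ± 0.11). Slc27a1, a fatty acid transporter, rose by 1.31 ± 0.13, Plin5, a lipid droplet protein at mitochondria, by 1.41 ± 0.18, and Gpihbp1, the endothelial anchor of lipoprotein lipase, by 1.16 ± 0.14. Srebf1, a regulator of lipid synthesis, fell by 1.14 ± 0.19. Genes of branched-chain amino acid breakdown were higher in 15 of 21 and lower in none (median 0.50, or -0.03 unscaled), with Bckdha, of the branched-chain dehydrogenase, at 1.35 ± 0.14 and Hibadh at 0.87 ± 0.06.

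Lactate handling shifted between paired genes. The exporter Slc16a3 fell by 0.91 ± 0.11, from 59.0, 75.6 and 84.6 to 28.2, 38.3 and 49.9 scaled TPM, while the importer Slc16a1 rose by 1.11 ± 0.09. Ldha, of the subunit that favours lactate formation, fell by 0.65 ± 0.11 with overlapping groups, and Ldhb rose by 0.99 ± 0.17. In glycolysis and glycogen metabolism 9 of 28 genes were higher and 9 lower (median -0.11). Phosphorylase kinase fell, with Phkb, its β subunit, going from 107.1, 114.6 and 133.6 to 32.2, 42.9 and 52.1 scaled TPM (-1.44 ± 0.09) and Phka1 changing by -0.78 ± 0.08, whereas the glycogen-making Gbe1 rose by 0.89 ± 0.08 and Gys1 by 0.53 ± 0.06.

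Most genes of mitochondrial import and upkeep were higher. Of 29 import genes 19 were higher and 2 lower (median 0.42, or -0.05 unscaled), with Samm50, of the outer membrane sorting complex, at 0.92 ± 0.08 and Timm44, of the inner membrane motor, at 1.01 ± 0.10. Of 21 chaperones and proteases 16 were higher and 1 lower (median 0.64). Among them Hspa9, the matrix HSP70, went from 90.2, 100.5 and 104.8 to 180.9, 197.7 and 212.7 scaled TPM (a rise of 1.0 ± 0.06), Afg3l2, an inner membrane protease, rose by 1.10 ± 0.06 and its partner Spg7 by 1.28 ± 0.10.

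Genes of fusion, fission and mitophagy were split, with 9 of 20 higher and 6 lower (median 0.20, or -0.27 unscaled). Mfn1, of outer membrane fusion, rose by 1.58 ± 0.13 and Chchd3, of the cristae junctions, by 1.45 ± 0.10, while the mitophagy receptor Bnip3 fell by 0.58 ± 0.06. Of 25 genes of antioxidant defence and uncoupling, 11 were higher and 4 lower (median 0.27, or -0.23 unscaled). Sod2, the mitochondrial superoxide dismutase, went from 107.6, 123.9 and 138 to 323.9, 357.8 and 389 scaled TPM (1.52 ± 0.10), and peroxiredoxins Prdx3, Prdx5 and Prdx6 rose by 0.78, 1.28 and 1.21.

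Contractile genes were called in both directions. Of 14 slow fibre genes 5 were higher and 1 lower (median 0.33, or -0.20 unscaled), and of 16 fast fibre genes 4 were higher and 4 lower (median -0.12). Without MCK_SO_17 the fast list had 3 higher and 6 lower. Ckmt2, the mitochondrial creatine kinase, had 561.1, 623.3 and 761.2 scaled TPM in WT and 2275, 2538 and 2940 in transgenic muscle (2.01 ± 0.14). Mb, myoglobin, rose by 0.73 ± 0.16. The slow troponins Tnni1 (0.21), Tnnt1 (0.36) and Tnnc1 (0.32) did not pass the test.

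Among the myosin heavy chains, Myh1, of type IIx fibres, had 302.2, 356.2 and 476.8 scaled TPM in WT and 791.3, 1069 and 1342 in transgenic muscle, without overlap (1.53 ± 0.16, limma adjusted p = 1.10e-09). Myh7, of slow fibres, had 33.6, 37.0 and 107.8 in WT and 87.9, 113.2 and 189.2 in transgenic muscle, with 1 WT library, WSO_27, inside the transgenic range and the other WT libraries at no more than 47.5 (1.43 ± 0.30). Myh2, of type IIa fibres, rose by 0.48 ± 0.16, a call that was lost without MCK_SO_31 (limma adjusted p = 0.054) and on unscaled TPM, where it stood at -0.05. Myh4, of type IIb fibres, rose by 0.56 ± 0.08 after scaling and stood at 0.03 on unscaled TPM (limma adjusted p = 0.774). Per TPM, Myh4 remained the most abundant of the 4 in both groups, with medians of 4739 and 6948 scaled TPM.

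**Figure D3:**
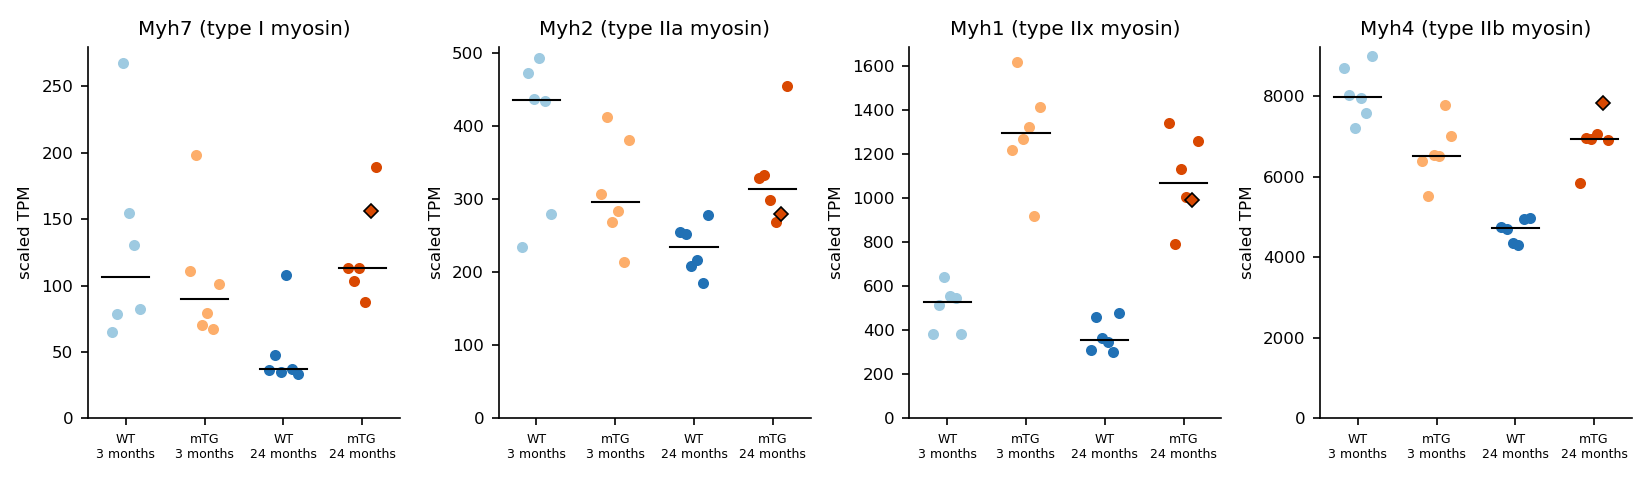
Scaled TPM (linear axis) of the myosin heavy chain genes Myh7, Myh2, Myh1 and Myh4 in WT and transgenic libraries at 3 and 24 months, 1 point per library, line at the median. Myh1 was higher in every transgenic than in every WT library of the same age, whereas for Myh4 this held at 24 months but not at 3 months.

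Genes of calcium handling and excitation fell more often than they rose, 13 of 25 lower and 3 higher (median -0.30), against 23.9% lower among all genes. Mrln, myoregulin, an inhibitor of the calcium pump, went from 185.6, 212.7 and 267.6 to 46.5, 70.5 and 119.3 scaled TPM (-1.63 ± 0.16). Jph2, which ties the sarcoplasmic reticulum to the surface membrane, changed by -0.84 ± 0.10, while Hrc, a calcium-binding protein of the reticulum, rose by 0.93 ± 0.08.

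Of 16 tested genes of the neuromuscular junction 7 were higher and 2 lower (median 0.19, or -0.24 unscaled). The 2 that fell were receptor genes: Musk, the kinase that clusters acetylcholine receptors, went from 3.58, 5.54 and 7.76 to 0.781, 2.14 and 2.35 scaled TPM (-1.17 ± 0.16), and Chrnb1, a receptor subunit, changed by -0.77 ± 0.08. Of 16 tested denervation genes 1 was higher and 3 lower (median 0.03, or -0.35 unscaled). The higher one was the myosin gene Myh8, with 0.85 to 1.26 scaled TPM in WT and 1.505 to 2.068 in transgenic muscle. The one with the largest change was Mss51, with 54.8, 117.6 and 218.9 scaled TPM in WT and 2.97, 6.39 and 20.2 in transgenic muscle (-3.89 ± 0.31, limma adjusted p = 3.94e-12), the largest fall among the named genes. Mss51 is a muscle-specific protein linked to limits on oxidative metabolism.

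Atrophy and proteolysis genes were lower in 7 of 24 and higher in 1 (median -0.03). Mstn, myostatin, an inhibitor of muscle growth, had 20.8, 24.7 and 27.5 scaled TPM in WT and 4.96, 6.98 and 7.74 in transgenic muscle (-1.72 ± 0.09). The muscle ubiquitin ligases Trim63 (-0.71) and Fbxo32 (-0.60), chosen after their values were seen, also fell. Mt1, a metallothionein, was the one that rose (1.69 ± 0.16).

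Of 17 tested secreted factors linked to PGC-1α in muscle 6 were higher and 5 lower (median 0.14, or -0.27 unscaled). Vegfb, a growth factor of the VEGF family, had 44.8, 48.5 and 54.2 scaled TPM in WT and 155.9, 179 and 264.9 in transgenic muscle (1.94 ± 0.11). Il15, a cytokine made by muscle, rose by 1.69 ± 0.13. Gdf11, a close relative of myostatin, fell by 1.57 ± 0.12, from a median of 4.11 to 0.731 scaled TPM.

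Endothelial markers were higher in 16 of 18 and lower in none, with a median of 0.67. Their summed level was 339.1, 359.5 and 432.5 scaled TPM in WT and 525.6, 569.3 and 624.2 in transgenic muscle, so that the groups did not overlap. The water channel Aqp1 rose by 1.05 ± 0.08, the receptor Tie1 by 0.71 ± 0.05, and Pecam1, a junction protein of endothelium, by 0.55 ± 0.08, from a range of 11.03 to 13.1 to one of 15.1 to 21.9 scaled TPM. The list's median was 0.17 on unscaled TPM, with 5 higher and 3 lower, and with the rRNA covariate 4 were higher. Pericyte and smooth muscle markers were higher in 5 of 12 and lower in 1 (median 0.16, or -0.26 unscaled). Among the defining markers, Rgs5 had medians of 55.2 and 72.0 scaled TPM with overlapping groups. For Pdgfrb the medians were 3.64 and 5.13, for Myh11 3.10 and 5.55, and for Acta2 20.37 and 20.25.

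Of 11 markers of fibro-adipogenic progenitors 7 were lower and none higher (median -0.39), with summed levels of 540.3 to 636 scaled TPM in WT and 408.1 to 565.6 in transgenic muscle. Dcn, the matrix proteoglycan decorin, went from 215.4, 238.1 and 271.8 to 143.4, 166.8 and 198.2 scaled TPM (-0.52 ± 0.08), and Dpt, dermatopontin, changed by -0.69 ± 0.11. Tendon markers were lower in 3 of 7 and higher in none, with sums of 35.7 to 50.7 scaled TPM in WT and 25.3 to 45.5 in transgenic muscle; Scx, the tendon transcription factor, changed by -1.38 ± 0.15 and Tnmd, tenomodulin, by -0.92 ± 0.19. Extracellular matrix genes were higher in 4 of 27 and lower in 6 (median -0.14), with Col4a1, of basement membranes, at 0.82 ± 0.13 and Fbn1, fibrillin, at -0.63 ± 0.11.

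Immune and blood markers were counted by cell type. Of 14 macrophage and myeloid markers none was higher and 1 lower (median -0.04). The defining markers went both ways. Medians in WT and transgenic muscle were 0.882 and 0.773 scaled TPM for Adgre1, 2.94 and 2.60 for Csf1r, and 2.20 and 3.28 for Cd68. Antigen presentation genes were higher in 7 of 14 (median 0.35, or -0.12 unscaled). Of 14 lymphocyte markers 3 were tested, since the defining T and B cell markers Cd3e and Cd79a stayed under 0.73 scaled TPM. One of the 3 was lower: Ighm, the IgM heavy chain, had 68.7, 153.6 and 288.1 scaled TPM in WT and 9.79, 14.1 and 42.6 in transgenic muscle (-3.04 ± 0.40). All 5 tested erythrocyte genes were higher (median 0.70), 3 without MCK_SO_17, with sums of 457 to 985.1 scaled TPM in WT and 766.3 to 1668 in transgenic muscle.

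Satellite cell markers were lower in 3 of 8, with the defining marker Pax7 at no more than 0.294 scaled TPM and not tested. Adipocyte markers were higher in 2 of 8 (1 without MCK_SO_17), and Adipoq ranged from 2.51 to 8.14 scaled TPM in WT and from 1.15 to 6.80 in transgenic muscle. Schwann cell and nerve markers were lower in 1 of 7. The part of any of these cell types in the other results was not tested. Cytosolic ribosomal protein genes were lower in 18 of 81 and higher in 2 (median -0.19), or lower in 46 without MCK_SO_17, whose sum of 41980 scaled TPM was the highest of its group against a median of 23550.

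The 12 largest rises among abundant nuclear protein-coding genes, Ppargc1a included, held genes of several kinds. BC049352, an uncharacterised gene on chromosome 9 (45182007 to 45250020, GRCm38), had 0.360, 0.749 and 2.25 scaled TPM in WT and 45.1, 48.9 and 63.8 in transgenic muscle (4.83 ± 0.16, limma adjusted p = 1.40e-21), more than Ppargc1a itself on this scale. Kcng4, a modifier subunit of voltage-gated potassium channels, rose by 3.03 ± 0.16 and Ppif, cyclophilin D of the mitochondrial permeability pore, by 2.35 ± 0.09. Ppif had 12.2, 12.8 and 14.0 scaled TPM in WT and 61.0, 72.2 and 75.1 in transgenic muscle.

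Mybph, a myosin-binding protein, rose by 2.30 ± 0.28, Adig, known from fat cells, by 2.50 ± 0.25, and Fyb, an adaptor of immune cells, by 3.04 ± 0.67. For Fyb the groups were close, with a WT range of 0.167 to 7.11 and a transgenic range of 7.63 to 37.9 scaled TPM. The others were Rangrf (2.21), Iqsec2 (2.18), Paqr4 (2.15), BC048679 (2.13) and Sco2. In all of the 12 the groups did not overlap, as the rule for naming them required.

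The 12 largest falls, in the same class of genes (nuclear, annotated as protein-coding, averaging 5 TPM or more in 1 of the groups, which do not overlap), included 2 genes of polyamine metabolism. Smox, spermine oxidase, went from 89.8, 124.8 and 164 to 10.01, 20.8 and 41.0 scaled TPM (-2.62 ± 0.25). Amd1, which supplies the aminopropyl groups of polyamines, went from 313, 370.2 and 542.7 to 44.3, 92.7 and 129.3 scaled TPM (-2.19 ± 0.18). Kcnab1, a potassium channel subunit, had 8.47 to 11.4 scaled TPM in WT and 0.413 to 0.721 in transgenic muscle (-2.81 ± 0.09). After Mss51, Lars2 and Prkag3, the others were Odf3l2 (-3.15), Slc38a4, an amino acid transporter (-2.33), Htra4 (-2.22), Tmem100 (-2.14), Ttll7 (-2.07) and Dkk3 (-2.06).

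**Figure D4:**
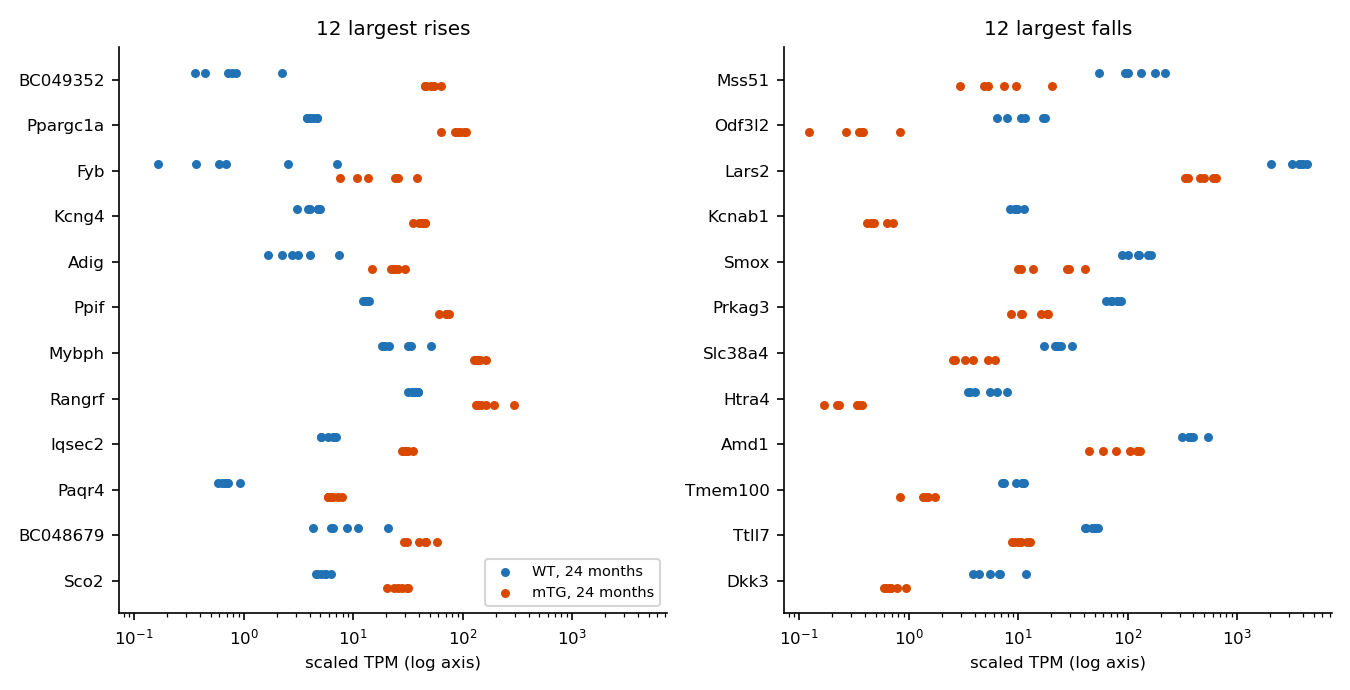
Scaled TPM (log axis) in each of the 6 WT and 6 transgenic libraries of 24 months for the 12 largest rises and 12 largest falls among nuclear protein-coding genes with no overlap, 1 row per gene and 1 point per library. BC049352 went from a WT median of 0.749 to a transgenic median of 48.9 scaled TPM, and Mss51 from 117.6 to 6.39.

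The effect at 24 months was then set against that at 3 months, from separate mice. At 3 months 2771 genes (22.3%) were higher and 2657 (21.4%) lower in transgenic muscle. Of the genes higher at 24 months 71.6% were also higher at 3 months, and of those higher at 3 months 76.9% were also higher at 24. For lower genes these shares were 63.2% and 70.4%. Pearson's r across the genes was 0.75, as a description, since genes are not independent replicates.

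The difference of the effects passed the test for 219 genes (1.77%) in the upward and 213 (1.72%) in the downward direction. Of 1031 distinct members of the gene lists, 28 were among them. With the rRNA share as covariate 16 and 7 genes passed, on unscaled TPM 2136 and 132. Of 23 genes named here that passed, Myh4, Entpd4 and Kcnab1 still did with the covariate. Of the 213, 71 were nuclear genes of other types than protein-coding. Of the small structural RNAs above 44 passed in the downward direction and none upward (4 did at an unadjusted p under 0.05). For these RNAs the filter on low values favoured the downward direction here too.

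On scaled TPM Myh4 changed direction between the ages, whereas on unscaled TPM it was not called at 24 months. At 3 months it had 7216, 7989 and 8994 scaled TPM in WT and 5525, 6527 and 7775 in transgenic muscle (-0.29 ± 0.08), so that the effect at 24 months was larger by 0.85 (limma adjusted p = 1.46e-05). The transgenic medians of the 2 ages, 6527 and 6948, were nearer to each other than the WT medians, 7989 and 4739. Myh7 differed by 1.67 (limma adjusted p = 0.0228), from -0.24 at 3 months, and with the rRNA covariate its effect at 24 months was 0.52 (limma adjusted p = 0.687). Myh2 differed by 0.80 (limma adjusted p = 0.0480), a call lost when any of 9 single libraries was left out (limma adjusted p = 0.0514 to 0.0881), and Myh13, a myosin of extraocular muscle, by 1.50.

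Car3, carbonic anhydrase of muscle, fell at both ages but less at 24 months. It had 602.7, 710.2 and 758 scaled TPM in WT and 240.7, 347 and 415.8 in transgenic muscle at 24 months, against medians of 833.1 and 163.8 at 3 months (difference of the effects 1.23, limma adjusted p = 0.000635). Srebf1 (1.08) and Tceal5 (0.84) showed the same order, though the call for Tceal5 was lost without any of 5 single libraries (limma adjusted p = 0.0512 to 0.0695). Entpd4, a nucleotide-hydrolysing enzyme of intracellular membranes, rose by 1.21 at 24 months and was not called at 3 months (difference 1.31). Dync1h1, the dynein heavy chain, rose by 1.06 and was likewise not called at 3 months (difference 0.94).

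In the other direction, Kcnab1 fell by 2.81 at 24 and by 1.17 at 3 months (difference -1.63, limma adjusted p = 4.49e-10). In WT muscle its median was 9.54 scaled TPM at 24 and 2.09 at 3 months, whereas in transgenic muscle it was 0.469 and 0.388. Dkk3, of the Dickkopf family, followed that pattern, with WT medians of 6.12 and 1.70 and transgenic medians of 0.680 and 0.631 scaled TPM (difference -1.25). Gdf11 differed by -0.80 and Ppargc1b by -0.64.

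Mamstr, a coactivator of the muscle factor MEF2, fell by 0.80 at 24 months and was not called at 3 (difference -1.0), and Zbtb20, a transcriptional repressor, fell by 0.86 (difference -0.86). Ttn, which encodes the giant sarcomere protein titin, had 164.8, 301 and 327.8 scaled TPM in WT and 74.7, 115.8 and 130.2 in transgenic muscle (-1.33 ± 0.17), against -0.49 at 3 months (difference -0.85, limma adjusted p = 0.0363, lost without any of 6 single libraries at 0.0527 to 0.0639). Lars2 had the largest difference among nuclear protein-coding genes named here (-2.87), and its WT level was high at the age at which the WT rRNA share was high. At that age the share and the genotype cannot be told apart, and a link of Lars2 to either was not tested.

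**Figure D5:**
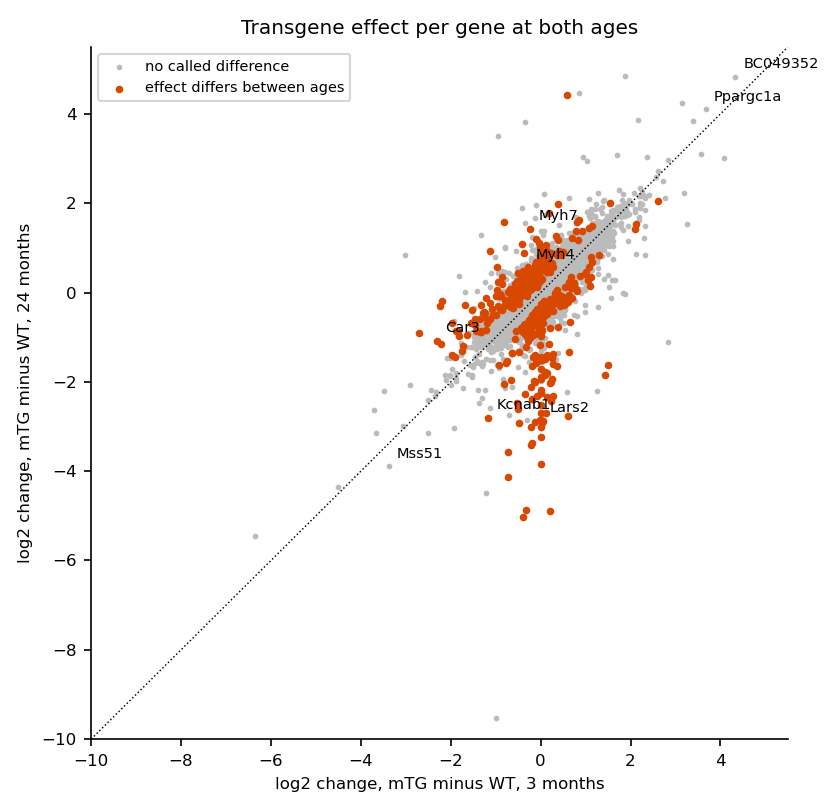
Transgene effect (log2, transgenic minus WT) at 3 months on the x axis and at 24 months on the y axis, 1 point per tested gene, with the genes whose effects differed between the ages (limma adjusted p under 0.05) in orange. The signed effect at 24 months lay above that at 3 months for 219 genes and below it for 213, whatever the size of either. The dotted line marks equal effects, and Rn7sk and Lars2 are among the points far below it.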

How the data were processed

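RNA was sequenced from gastrocnemius muscle of male mice, in 35 libraries prepared from total RNA with a TruSeq RNA Library Prep Kit (version 2), per the labels' protocols. The values are TPM per gene, deposited by the authors as a table of 54416 gene IDs, and the submitters' processing notes name cutadapt 1.16, Salmon 1.1.0, edgeR and the build GRCm38. Since TPM carries no read totals, sequencing depth is unknown and intervals for counting error are left out. Of the gene IDs, 54163 matched GENCODE M21 and 253 did not.

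TPM was scaled by median of ratios, and 12399 genes that reached 1 TPM in 5 or more columns were kept. Then log2(scaled TPM + 1) was fitted with limma 3.58.1 (R 4.3.3, lmFit and eBayes with a trend) over all 35 libraries with 1 mean per group. P-values were adjusted by Benjamini and Hochberg over all genes tested, with calls under 0.05. The shares of TPM and Ppargc1a were compared by exact permutation of the 12 libraries (924 splits, adjusted over the 2 shares). The fit was also run on simulated data with few changed genes and independent noise. Such data do not test the scaling where many genes change, as here.

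Members and gene lists were chosen with earlier results of these data known, 6 of the lists after their genes' values were seen. Named genes are Ppargc1a, its known partners, the defining myosins and troponins, the 12 largest rises and falls, up to 4 called members of each list by adjusted p, and the 6 largest differences between the ages in each direction. The largest are taken among nuclear protein-coding genes that average 5 TPM or more in WT or transgenic muscle of 24 months, where these do not overlap, without Gm and Rik models. Exceptions such as Mrpl23, Cox16, Pdk1, Pcx, Atp5g2, Timm8b, mt-Nd4l and mt-Nd6, and the small structural RNAs, were named after their values were seen. Alternatives were other scalings, filters, pseudocounts, covariates and leaving out each library. Some genes that the naming rule selects are not reported here.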

Additional observations from a re-analysis of the deposited data

Results flagged for a closer look

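In 47 of 358 groups of 6 libraries that were examined, 1 library lay further from the others than Dixon's 95% value allows, where chance gives about 1 in 20. Of these, 23 were in the transgenic library MCK_SO_17 and 10 in the WT library WSO_27, both of which entered every result. Values are scaled TPM of the library, with the range of the other 5 libraries of its group given for those with the widest gaps.

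MCK_SO_17 was highest for Acadvl (614.6, others 335.1 to 372.1), Timm8b (308, others 186.4 to 204.3), Bckdha (194.7, others 94.5 to 115.4), Cox16 (69.97), Fars2 (67.5), Cox5b (3224), Atp5b (8580), Cyc1 (1045), Uqcrc1 (1190), Ndufb10 (1508), Ndufa8 (682.2), Cox4i1 (3628), Atp5g1 (3917) and Atp5g3 (2955). These genes belong to mitochondria, and each is higher in transgenic muscle except Timm8b, which was not called, and Cox16, which fell. It was also highest for Ckm (28900, others 14550 to 19630), Dap3 (151.9), Kyat1 (17.6), Rangrf (295.1), Alad (26.5), Myh13 (11.2) and Odf3l2 (0.827), and lowest for Esrrb (3.95, others 5.46 to 6.19) and Ppard (4.20, others 6.78 to 7.50). In other transgenic libraries, mt-Nd4l was highest in MCK_SO_61 (11220, others 4346 to 6207), Tnni1 (93.99) and Myh2 (454.7) in MCK_SO_31, and Fbxo32 in MCK_SO_82 (32.3), which was lowest for Ppif (60.95).

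The WT library WSO_27 was highest for the slow fibre genes Myh7 (107.8, others 33.65 to 47.5), Tnnt1 (207.2) and Tnnc1 (150.9), for the extraocular Myh13 (5.96, others 1.52 to 2.39), and for mt-Atp6 (15000), Tefm (14.3) and Cox16 (84.6). It was lowest for Ttn (164.8, others 293.7 to 327.8), Pnpla2 (62.0) and Entpd4 (27.35). WSO_15 was highest for Adgre1 (1.37), Scx (5.37), BC049352 (2.25) and Dkk3 (11.9), WSO_29 for Fyb (7.11) and Slc25a3 (564.9), and WSO_28 for Amd1 (542.7), while Nrf1 was lowest in WSO_29 (2.71) and Ldhb in WSO_28 (169.3).

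For 23 named genes the effect of the transgene differed between the ages by limma's test of the difference. On the signed log2 scale the effect at 24 months was above that at 3 months for Myh4 (0.85), Myh7 (1.67), Myh2 (0.80), Myh13 (1.50), Car3 (1.23), Srebf1 (1.08), Tceal5 (0.84), Entpd4 (1.31), Dync1h1 (0.94), Tbrg4 (0.46) and Phkb (0.47). It was below for Kcnab1 (-1.63), Dkk3 (-1.25), Gdf11 (-0.80), Ppargc1b (-0.64), Mamstr (-1.0), Zbtb20 (-0.86), Ttn (-0.85), Lars2 (-2.87), Rn7sk (-2.86), mt-Rnr1 (-3.12), mt-Rnr2 (-3.29) and Rpph1 (-2.80), the last not called with a pseudocount of 0.1 (limma adjusted p = 0.110). The cause of these differences was not tested.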

How the results depend on the processing

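No paired analysis was possible because the columns of both groups of 24 months and of the transgenic group of 3 months carry numbers other than the replicate numbers of the labels. Leaving out each library in turn gave 2826 to 2961 genes higher and 2780 to 2931 lower at 24 months, and 163 to 265 and 178 to 253 for the difference from 3 months, with the direction and the test of Ppargc1a (4.06 to 4.21), the mitochondrial share (15.8 to 18.8 points) and the rRNA share (-4.06 to -3.70) kept. Unscaled TPM gave 849 higher and 7714 lower at 24 months and 2136 and 132 for the difference. A mean of at least 5 TPM gave 1897 and 1584, with 72 lower for the difference. The rRNA share as covariate gave 1007 and 715, and 16 and 7 for the difference. For the difference, array weights gave 422 and 488, no filter 446 lower, and nuclear protein-coding genes alone 130 lower, the last with fewer genes tested. The filter on the mean and no filter also tested other sets of genes. For unscaled TPM, the rRNA covariate and array weights the cause was not tested.

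Signs turned for 11 named genes on unscaled TPM, where the median gene also shifted: Ckm (-0.42), Nrf1 (-0.28), Ppard (-0.36), Timm8b (-0.46), mt-Nd6 (-0.23), Sdhc (-0.21), Tnni1 (-0.31), Tnnt1 (-0.17), Tnnc1 (-0.21), Myh2 (-0.049) and Rgs5 (-0.23). With quantile normalization Ckm (-0.11) and Timm8b (-0.11) turned, and leaving out single libraries moved Ckm from -0.0088 (without MCK_SO_17) to 0.19 and Timm8b from -0.038 (without MCK_SO_17) to 0.14. With the rRNA covariate 14 turned: Acta1 (0.11), Rn7sk (0.65), Rpph1 (1.10), mt-Rnr2 (0.16), mt-Rnr1 (0.47), Ppara (-0.24), Timm8b (-0.0086), Lars2 (0.69), Atp5g2 (0.032), Pcx (0.051), Tnni1 (-0.27), Tnnt1 (-0.42), Tnnc1 (-0.39) and Adgre1 (0.11), and 37 of the 177 named genes lost their call. Of the 23 named differences from 3 months, 18 were lost and those of Rn7sk (0.22) and Rpph1 (0.20) turned. Adipoq, not called, stood at 0.0074 without WSO_15 and at 0.017 without MCK_SO_82. The cause was not tested. Depth is unknown, so the counting error of genes at low TPM, such as Kcnab1 and Odf3l2 in transgenic muscle, cannot be given.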

Other observations

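6 further gene groups were chosen after values of their genes were seen, so their counts are descriptions. All 12 tested genes of polyamine synthesis and turnover were counted, and 6 were lower and 1 higher (median -0.26), or 8 lower without MCK_SO_17. Besides Smox and Amd1, Odc1, ornithine decarboxylase, the first enzyme of the pathway, had 68.4, 75.3 and 91.7 scaled TPM in WT and 16.1, 19.9 and 30.8 in transgenic muscle (-1.85 ± 0.15). Sms, spermine synthase, went from 39.97, 49.7 and 59.7 to 11.6, 13.0 and 15.5 scaled TPM (-1.83 ± 0.08). In each of the 4 genes the groups did not overlap.

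Of 12 genes of iron-sulfur cluster assembly 11 were higher and none lower (median 0.60), with Glrx5, a mitochondrial glutaredoxin, at 1.23 ± 0.11, the scaffold Iscu at 0.98 and Isca1 at 0.90. Of 37 tested mitochondrial carriers 22 were higher and 2 lower (median 0.38, or -0.02 unscaled), or 4 lower without WSO_27 or without MCK_SO_82. Slc25a39, which imports glutathione, rose by 1.45 ± 0.09 and Slc25a3, the phosphate carrier, by 1.25 ± 0.08. Of 9 genes of haem synthesis 4 were higher (median 0.25, or -0.23 unscaled), among them Alas1, its first enzyme, by 1.42 ± 0.11 and Alad by 0.95.

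Of 24 peroxisome genes 14 were higher and 2 lower (median 0.31, or -0.18 unscaled). Phyh, which starts the breakdown of phytanic acid, had 88.35, 97.7 and 115.6 scaled TPM in WT and 325.6, 347.1 and 396.9 in transgenic muscle (1.82 ± 0.12). Of 14 clock genes 1 was higher and 7 lower (median -0.25), 5 lower without MCK_SO_17 and 1 with the rRNA share as covariate. Cry2 (-0.68) and Clock (-0.72) were among those lower.

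The PGC-1α knockout libraries, which entered no comparison, had 6.28, 7.52 and 10.6 scaled TPM of Ppargc1a at 24 months (lowest, median, highest), all above the WT libraries of that age (3.79 to 4.69), so the level of this gene does not check the knockout label.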
